A study of Mus musculus with 27 samples.

Results

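The 31 genes described here encode enzymes of foreign-compound (xenobiotic) metabolism that mouse airways and lungs express, 19 of phase 1 and 12 of phase 2. They were chosen by gene symbol from the 56941 genes of the deposited tables, and all 31 passed the filter on low counts that left 24629 genes for testing. RNA sequencing of whole lung covered 27 libraries from male wild-type C57Bl/6J mice, 7 to 8 weeks old. The mice had 5 oropharyngeal instillations of 10 µg house dust mite extract (HDM) or of phosphate-buffered saline (PBS), given 2 to 3 days apart, and 24 h after the last of them a single instillation of 200 µg combustion products (CP) or of saline (SAL). CP came from paper, plastic and plywood that were burned under controlled conditions, and the lungs were taken 24 h after that last instillation. The groups are HDM_CP (HDM, then CP, n = 7), HDM_SAL (HDM, then saline, n = 6), PBS_CP (PBS, then CP, n = 7) and PBS_SAL (PBS, then saline, n = 7). All 4 groups received the same number of liquid instillations into the airway.

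Phase 1 enzymes add or uncover a reactive group on a foreign molecule. Most of them are cytochromes P450, flavin monooxygenases, dehydrogenases, carbonyl reductases, epoxide hydrolase or esterases. Phase 2 enzymes then join glutathione, sulfate or glucuronic acid to that group, which makes the product easier to excrete. In mouse airways many of these enzymes are made by club cells, the secretory cells whose main product is the secretoglobin Scgb1a1. Others are also made in the alveoli, in blood vessels and in connective tissue.

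Summed estimated counts were 56.3 to 84.5 M per library, above the 20 M paired reads that were planned. The reason is not given, so these sums are not taken as sequencing depth. Divided by 4 they were 14.1 to 21.1 M, and a fit on values divided by 4 ended no member call. Mitochondrial genes took 3.09% of the counts in library HDM_SAL 99, 3.26% in HDM_SAL 50 and 3.86% in HDM_SAL 54, against 2.08% to 2.78% in the other 24 libraries. Each call that ended when those 3 libraries were left out together is given with its value without them. Markers of airway and alveolar cells were present in every group: the 15 club and secretory genes summed to at least 9854 CPM (counts per M counts, scaled by TMM), the 14 ciliated genes to at least 428 CPM and the 8 alveolar type 1 genes to at least 3333 CPM in each library. Of 6 hepatocyte genes, Apoa1, Ttr, Serpina1a and Fgb were under the filter on low counts. A gene that is high in only 1 library also fails that filter, so their absence from single libraries is not shown. The other 2, Alb and Apoa2, summed to 92.2 CPM in 1 HDM_SAL library and to at most 3.61 CPM in any library of the other groups. The part of that HDM_SAL library in the results below was not tested. Each library is a whole lung, so fewer cells of a type and less RNA per cell cannot be told apart in any result below.

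Levels of different genes can be set side by side only per length, in TPM (transcripts per M transcripts). By mean TPM over the 27 libraries, the carbonyl reductase Cbr2 was the most abundant enzyme at 5345 ± 1275 (SD). The P450 Cyp2f2, which activates naphthalene in club cells, followed at 1870 ± 532 TPM, and the retinaldehyde dehydrogenase Aldh1a1 at 1103 ± 215 TPM. The lung P450 Cyp4b1 averaged 590 ± 121 TPM and the flavin monooxygenase Fmo2 averaged 572 ± 171 TPM. The least abundant enzyme was the sulfotransferase Sult1d1 at 2.44 ± 1.31 TPM. Neighbours in this order overlapped: Cyp4b1, Fmo2, Ces1d, Gstm1 and Fmo1 all averaged between 460 and 590 TPM, with SDs of 74.3 to 171 TPM. Within groups the median SD of a member was 0.27 on the log2 scale of CPM, the same as over all 24629 genes.

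The extremes of a group fell in the same few libraries for most of the 31 enzymes. HDM_CP 98 was the lowest of its group in CPM for 26 of them. HDM_SAL 54 was the highest of its group for 20, PBS_CP 76 for 21 and PBS_SAL 81 for 14.

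Promoter sequences are shown for 2 genes that rose and 4 that fell after HDM in the comparisons described further on, because they are the members on which those comparisons turn. Each is the 250 bases before the annotated start, 5′ to 3′ on the gene's strand, from RefSeq on GRCm38.p6, an older build than the files' GRCm39. Capitals mark the 2 motifs searched on both strands, GCGTG (the core bound by the aryl hydrocarbon receptor, AhR) and TGACNNNGC (the core of the antioxidant response element bound by Nrf2), which do not overlap each other here.
Gsto1, chr19:47854723-47854972, plus strand: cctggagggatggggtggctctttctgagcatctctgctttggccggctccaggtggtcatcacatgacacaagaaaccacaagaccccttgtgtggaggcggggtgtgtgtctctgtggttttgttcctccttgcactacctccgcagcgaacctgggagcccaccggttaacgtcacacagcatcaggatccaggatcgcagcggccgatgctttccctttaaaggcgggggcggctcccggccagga
Aldh1a7, chr19:20727557-20727806, minus strand: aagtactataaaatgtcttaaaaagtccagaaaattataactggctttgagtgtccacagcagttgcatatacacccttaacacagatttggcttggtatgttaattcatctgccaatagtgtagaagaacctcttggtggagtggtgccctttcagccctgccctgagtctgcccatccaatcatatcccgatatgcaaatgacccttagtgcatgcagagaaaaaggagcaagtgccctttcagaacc
Ephx1, chr1:181017570-181017819, minus strand: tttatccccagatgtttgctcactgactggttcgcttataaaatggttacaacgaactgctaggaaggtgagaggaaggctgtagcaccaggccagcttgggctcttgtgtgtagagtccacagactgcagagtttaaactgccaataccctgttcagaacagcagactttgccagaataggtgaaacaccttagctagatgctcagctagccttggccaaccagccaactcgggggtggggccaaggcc
Sult1a1, chr7:126676419-126676668, minus strand: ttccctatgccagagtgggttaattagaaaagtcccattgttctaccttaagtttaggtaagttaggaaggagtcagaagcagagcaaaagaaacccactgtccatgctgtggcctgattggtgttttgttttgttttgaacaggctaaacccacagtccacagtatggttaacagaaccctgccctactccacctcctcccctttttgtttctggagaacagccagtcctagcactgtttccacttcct
Gstm1, chr3:108017974-108018223, minus strand: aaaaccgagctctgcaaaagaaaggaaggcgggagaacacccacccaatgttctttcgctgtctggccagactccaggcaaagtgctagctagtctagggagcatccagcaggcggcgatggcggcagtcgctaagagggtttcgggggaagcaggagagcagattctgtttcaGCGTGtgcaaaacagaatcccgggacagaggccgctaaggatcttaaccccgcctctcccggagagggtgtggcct
Gsta3, chr1:21240335-21240584, plus strand: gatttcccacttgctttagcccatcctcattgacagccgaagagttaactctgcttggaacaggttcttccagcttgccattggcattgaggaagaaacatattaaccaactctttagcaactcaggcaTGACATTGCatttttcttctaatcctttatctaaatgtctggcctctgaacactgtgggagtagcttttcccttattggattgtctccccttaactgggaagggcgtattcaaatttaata
Gstm1, shown for 1 of its 2 annotated starts, held 1 GCGTG that begins 76 bases before the start, and Gsta3 held 1 TGACNNNGC that begins 121 bases before it, while the other 4 windows held neither. Of the 27 members with a promoter entry, 6 held GCGTG (Aox3, Cyp2b10, Gstm1, Gstp1, Por and Sult1d1), against 28.2% of all 32851 promoters. TGACNNNGC was in 2 of the 27 (Gsta3 and Mgst1), against 10.2% of all promoters. A match of letters is a description of the window and says nothing of binding.

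In saline-treated lungs, HDM raised 3 of the 31 enzymes and lowered 5 (HDM_SAL against PBS_SAL, edgeR quasi-likelihood test, adjusted p under 0.05). Over all genes 5.44% passed, with 3.19% higher and 2.25% lower. The 3 that rose were the omega-class glutathione transferase Gsto1, Aldh1a7 and the retinol dehydrogenase Adh7. The 5 that fell were Ephx1, Sult1a1, Fmo2, Adh1 and Fmo5. The median log2 fold change was -0.18 over the members and 0.01 over all genes, and 20 of the 31 were negative. Leaving out HDM_SAL 54, HDM_SAL 99 or PBS_SAL 80 left 5 calls, and leaving out HDM_CP 98, which enters this comparison only through the shared estimate of spread, gave 13. Without HDM_SAL 50, 54 and 99 together, which leaves 3 HDM_SAL libraries, no member passed with edgeR, 14 had an unadjusted p under 0.05 (8.27% of all genes did), 34 of all genes passed, and the members' median was -0.26.

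In CP-treated lungs, HDM lowered 12 of the 31 enzymes and raised none (HDM_CP against PBS_CP, the same test). Over all genes 7.87% passed, with 2.27% lower and 5.6% higher. The 12 were Cyp2f2, Cyp2a5, Cyp2e1, Cyp4b1, Fmo1, Fmo5, Ephx1, Ces1f, Gsta3, Gstm1, Gstm2 and Sult1d1. The median log2 fold change was -0.29 over the members and 0.00 over all genes, and 28 of the 31 were negative. DESeq2 and limma voom called 0 members higher as well. Of the 3 with positive values, Gsto1 and Aldh1a7 had an unadjusted p under 0.05, which 20.7% of all genes had in either direction. The count of 12 fell to 6 without HDM_CP 49, HDM_CP 67 or PBS_CP 76, and to 7 without PBS_CP 75 or HDM_CP 98. Ephx1 and Fmo5 were called lower in both comparisons. With the 3 runs into which the library numbers fall as a block in the fit, the call of Fmo5 in saline-treated lungs was lost (-0.24, adjusted p = 0.0711) and that of Ephx1 was kept in both. The 2 comparisons share no library but share 1 estimate of spread, and whether they differ is tested by the interaction given with the CP results.

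Averaged over CP and saline, HDM raised the same 3 enzymes and lowered 17, so that 20 of 31 passed, against 16.2% of all genes in either direction (9.2% higher and 6.98% lower). This average adds libraries but uses the same ones as both comparisons before it, so it is no independent result. Of the 19 phase 1 members 2 rose and 11 fell, and of the 12 phase 2 members 1 rose and 6 fell. Cbr2, Ces1d, Cyp2b10 and Gstt1 passed only in this averaged comparison. Aldh1a1, Aox3, Cyp2s1, Gsta4, Gstp1, Mgst1, Por, Ugt1a6a and Ugt1a7c passed in none of the 7 comparisons.

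**Figure D1:**
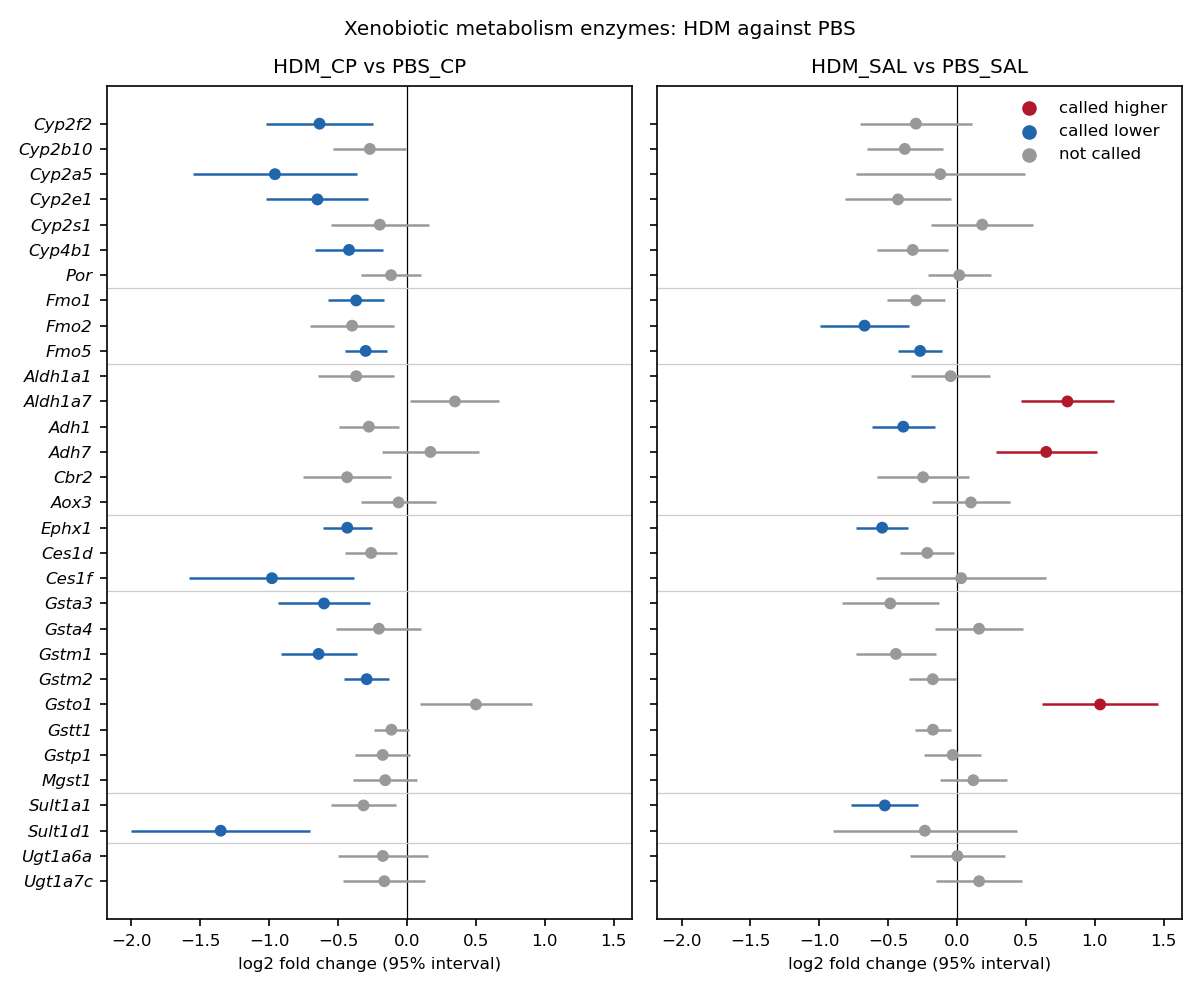
Log2 fold change of each of the 31 enzymes (points) with its 95% interval (lines) for HDM_CP against PBS_CP and for HDM_SAL against PBS_SAL, from edgeR, ordered by role. Red points rose and blue points fell at an adjusted p under 0.05. Of the 31, 12 fell in CP-treated lungs, and 3 rose and 5 fell in saline-treated lungs.

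Among the cytochromes P450 and their electron donor Por, 4 of 7 fell after HDM in CP-treated lungs and none of 7 passed in saline-treated lungs, where the median log2 fold change of the 7 was -0.30. Cyp2f2 ranged over 671 to 1912 CPM (median 1227) in HDM_CP lungs, 1077 to 2495 (median 1531) in HDM_SAL lungs, 1611 to 2311 (median 1733) in PBS_CP lungs and 1527 to 2633 (median 2004) in PBS_SAL lungs. It fell in HDM_CP relative to PBS_CP lungs, with a log2 fold change of -0.63 ± 0.19 (SE, adjusted p = 0.0379), and the groups overlapped between 1611 and 1912 CPM. In HDM_SAL against PBS_SAL lungs its log2 fold change was -0.30 ± 0.20 (adjusted p = 0.432). Cyp4b1, which activates furans such as ipomeanol, ranged over 231 to 546 CPM (median 416) in HDM_CP lungs, 436 to 558 (median 481) in HDM_SAL lungs, 514 to 581 (median 553) in PBS_CP lungs and 446 to 716 (median 604) in PBS_SAL lungs. Its log2 fold change was -0.42 ± 0.12 in the CP-treated lungs (adjusted p = 0.029), and 1 of 7 HDM_CP libraries was within the range of the PBS_CP libraries. It also passed in the averaged comparison (-0.37 ± 0.09, adjusted p = 0.00373), a call that was lost without HDM_SAL 50, 54 and 99 (-0.32, adjusted p = 0.0666). Cyp2b10, a gene inducible through the receptor CAR, ranged over 90.2 to 199 CPM (median 147) in HDM_CP lungs, 148 to 182 (median 169.5) in HDM_SAL lungs, 175 to 196 (median 177) in PBS_CP lungs and 155 to 269.6 (median 224) in PBS_SAL lungs. It passed in the averaged comparison, with a log2 fold change of -0.32 ± 0.09 (adjusted p = 0.017), and 2 of 7 HDM_CP libraries lay above every PBS_CP library. That value was -0.32 without HDM_SAL 50, 54 and 99 (adjusted p = 0.104).

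The remaining P450s were at low levels or did not pass. Cyp2e1, which oxidises ethanol and small solvents, ranged over 2.26 to 5.30 CPM (median 4.60) in HDM_CP lungs, 4.70 to 9.44 (median 5.07) in HDM_SAL lungs, 5.08 to 8.22 (median 5.48) in PBS_CP lungs and 6.06 to 9.12 (median 7.75) in PBS_SAL lungs. It fell in HDM_CP relative to PBS_CP lungs by 0.65 ± 0.18 on the log2 scale (adjusted p = 0.0235), and 1 of 7 HDM_CP libraries was within the PBS_CP range. Cyp2a5, the mouse coumarin hydroxylase, ranged over 3.89 to 14.7 CPM (median 7.69) in HDM_CP lungs, 6.77 to 14.4 (median 11.6) in HDM_SAL lungs, 8.57 to 26.96 (median 13.0) in PBS_CP lungs and 6.82 to 17.1 (median 10.4) in PBS_SAL lungs. Its log2 fold change in the CP-treated lungs was -0.96 ± 0.29 (adjusted p = 0.0398), and 3 of 7 HDM_CP libraries were within the PBS_CP range. Of the windows of 100 bases in Cyp2a5 transcripts, 14.4% also occur in another gene, chiefly Cyp2a4, so part of its count is uncertain. The epithelial P450 Cyp2s1 had log2 fold changes of 0.18 ± 0.18 in saline-treated and -0.20 ± 0.17 in CP-treated lungs, and Por had 0.02 ± 0.11 and -0.12 ± 0.11, none of which passed. The calls in the CP-treated lungs were lost on leaving out single libraries: for Cyp2f2 any of HDM_CP 49, 67, 97 and 98 and PBS_CP 59, 75, 76 and 101 (adjusted p 0.0514 to 0.089), for Cyp2a5 any of HDM_CP 45, 49, 67 and 98 and PBS_CP 75, 76 and 102 (0.0568 to 0.0978), for Cyp2e1 any of HDM_CP 67 and 98 and PBS_CP 58 and 75 (0.06 to 0.0621), and for Cyp4b1 any of HDM_CP 49 and 67 and PBS_CP 58, 75 and 76 (0.0508 to 0.0754). Without both HDM_CP 45 and HDM_CP 98, the libraries farthest from the group mean in Scgb1a1, the calls of Cyp2a5 (-0.79, adjusted p = 0.155), Cyp2e1 (-0.50, adjusted p = 0.113) and Cyp4b1 (-0.33, adjusted p = 0.0524) were lost. That of Cyp2a5 was also lost without HDM_SAL 50, 54 and 99 (-0.96, adjusted p = 0.0522), which are in neither of the groups compared.

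All 3 flavin monooxygenases, which oxygenate nitrogen and sulfur atoms of foreign compounds, fell when CP and saline lungs were averaged. Fmo2 ranged over 458 to 1237 CPM (median 789) in HDM_CP lungs, 733 to 1037 (median 859) in HDM_SAL lungs, 934 to 1254 (median 1116) in PBS_CP lungs and 1034 to 1816 (median 1415) in PBS_SAL lungs. It fell in HDM_SAL relative to PBS_SAL lungs, with a log2 fold change of -0.67 ± 0.16 (adjusted p = 0.0118), and the highest HDM_SAL library stood just above the lowest PBS_SAL library. Without HDM_SAL 50, 54 and 99 it was -0.57 (adjusted p = 0.41). Its value in CP-treated lungs was -0.40 ± 0.15 (adjusted p = 0.107). Fmo1 ranged over 298 to 539 CPM (median 424) in HDM_CP lungs, 418 to 610.2 (median 484) in HDM_SAL lungs, 510.0 to 599.8 (median 541) in PBS_CP lungs and 528 to 702 (median 611) in PBS_SAL lungs. Its fall was called in the CP-treated lungs, at -0.37 ± 0.10 (adjusted p = 0.0184), where 1 of 7 HDM_CP libraries was within the PBS_CP range. Without HDM_CP 49 or HDM_CP 98 the adjusted p was 0.0518 to 0.054. Fmo5 ranged over 26.9 to 43.2 CPM (median 34.3) in HDM_CP lungs, 34.2 to 41.9 (median 37.2) in HDM_SAL lungs, 38.0 to 47.4 (median 41.5) in PBS_CP lungs and 39.6 to 48.3 (median 45.8) in PBS_SAL lungs. It fell by 0.27 ± 0.08 in saline-treated and by 0.30 ± 0.07 in CP-treated lungs on the log2 scale (adjusted p = 0.0395 and 0.0112), with overlapping groups in both. The first of these Fmo5 calls was lost without any 1 of HDM_SAL 50, 52, 54 and 99 and PBS_SAL 61, 64, 79, 80 and 81 (adjusted p 0.0527 to 0.117), and without HDM_SAL 50, 54 and 99 together it was -0.18 (adjusted p = 0.674). The second was lost without both HDM_CP 45 and 98 (-0.24, adjusted p = 0.054). Fmo1 and Fmo2 lie near each other on chromosome 1 (GRCm39, 162657130 to 162694179 and 162701886 to 162726295, minus strand).

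The alcohol, aldehyde and carbonyl enzymes split. Aldh1a7, a close relative of Aldh1a1 found in rodents, ranged over 105 to 178 CPM (median 147) in HDM_CP lungs, 117 to 309 (median 155) in HDM_SAL lungs, 97.2 to 143 (median 117) in PBS_CP lungs and 91.7 to 121 (median 103) in PBS_SAL lungs. It rose in HDM_SAL relative to PBS_SAL lungs, with a log2 fold change of 0.80 ± 0.16 (adjusted p = 0.00446), and the groups overlapped between 117 and 121 CPM. In CP-treated lungs its log2 fold change was 0.35 ± 0.16 (adjusted p = 0.198). Adh7, which oxidises retinol and ethanol, ranged over 8.78 to 17.2 CPM (median 13.4) in HDM_CP lungs, 10.3 to 25.8 (median 15.04) in HDM_SAL lungs, 8.46 to 15.5 (median 10.8) in PBS_CP lungs and 8.94 to 11.4 (median 10.2) in PBS_SAL lungs. Its rise in the saline-treated lungs was 0.65 ± 0.18 on the log2 scale (adjusted p = 0.0305), with 4 of 6 HDM_SAL libraries above every PBS_SAL library, and it was lost without any 1 of HDM_SAL 50, 54 and 99 and PBS_SAL 61, 64 and 80 (adjusted p 0.0506 to 0.136). The call was also lost on log2(TPM + 1) and log2(TPM + 0.1) (adjusted p = 0.0515 and 0.0519), without the 3 libraries of lowest total (0.0568) and with the run of library numbers as a block (0.0711). The value was 0.19 in saline-treated lungs (adjusted p = 0.898) and 0.18 in the averaged comparison (adjusted p = 0.422) without HDM_SAL 50, 54 and 99 together. Without HDM_SAL 54 the averaged log2 fold change of Adh7 was 0.31, with an adjusted p of 0.0573, against 0.41 ± 0.12 (adjusted p = 0.0229) with it. Adh1, the classical alcohol dehydrogenase, ranged over 68.8 to 126 CPM (median 89.8) in HDM_CP lungs, 77.9 to 99.5 (median 84.8) in HDM_SAL lungs, 95.9 to 134 (median 105) in PBS_CP lungs and 98.2 to 135 (median 109) in PBS_SAL lungs. It went the other way in the saline-treated lungs, with a log2 fold change of -0.39 ± 0.11 (adjusted p = 0.0358), and the call was lost without any 1 of HDM_SAL 54, 72, 99 and 100 and PBS_SAL 80 and 104 (adjusted p 0.0539 to 0.102), without the 3 libraries of lowest total (0.0611) and without HDM_SAL 50, 54 and 99 together (-0.41, adjusted p = 0.349). Adh1 and Adh7 lie near each other on the plus strand of chromosome 3 (GRCm39, 137966752 to 137996459 and 137923521 to 137939143), and within groups their deviations had a correlation of 0.17.

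Aldh1a1 ranged over 579 to 1165 CPM (median 892) in HDM_CP lungs, 881 to 1609 (median 1103) in HDM_SAL lungs, 994 to 1509 (median 1072) in PBS_CP lungs and 1049 to 1376 (median 1111) in PBS_SAL lungs. Its log2 fold changes were -0.05 ± 0.14 in saline-treated and -0.37 ± 0.14 in CP-treated lungs (adjusted p = 0.901 and 0.0968), so it did not pass where its relative Aldh1a7 did, and the 2 genes share 0.05% of their transcript windows. Cbr2, which reduces carbonyl compounds in club cells, ranged over 1243 to 3075 CPM (median 2106) in HDM_CP lungs, 2035 to 4066 (median 2477) in HDM_SAL lungs, 2378 to 3233 (median 2804) in PBS_CP lungs and 2842 to 4022 (median 3089.7) in PBS_SAL lungs. It passed as lower in the averaged comparison alone (-0.34 ± 0.11, adjusted p = 0.0379). That call was lost on leaving out any 1 of 12 libraries, namely HDM_CP 49, 67 and 98, HDM_SAL 52, 72, 99 and 100, PBS_CP 75, 76 and 101 and PBS_SAL 80 and 81 (adjusted p 0.0512 to 0.0775), and with the run of library numbers as a block (-0.32, adjusted p = 0.0505). The aldehyde oxidase Aox3 had log2 fold changes of 0.10 ± 0.14 and -0.06 ± 0.13 in saline-treated and CP-treated lungs, and neither passed.

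Ephx1, the microsomal epoxide hydrolase that opens epoxides made by P450s, was the member with the smallest adjusted p in both HDM comparisons. It ranged over 105 to 166 CPM (median 142) in HDM_CP lungs, 131 to 176 (median 162) in HDM_SAL lungs, 166 to 211 (median 187) in PBS_CP lungs and 208 to 262 (median 226) in PBS_SAL lungs. Every HDM_SAL library lay below every PBS_SAL library, which 0.804% of all genes did in this direction. The log2 fold change was -0.54 ± 0.09 in saline-treated lungs (adjusted p = 0.000729) and -0.43 ± 0.09 in CP-treated lungs (adjusted p = 0.00203), where the groups overlapped by less than 1 CPM. No single library ended either call. Without HDM_SAL 50, 54 and 99 together the first was -0.51 with an adjusted p of 0.0671.

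The carboxylesterases Ces1d and Ces1f cleave ester bonds of drugs and lipids. Ces1d, the more abundant, ranged over 335 to 453 CPM (median 415) in HDM_CP lungs, 378 to 597 (median 444) in HDM_SAL lungs, 436 to 555 (median 469.6) in PBS_CP lungs and 452 to 611 (median 507) in PBS_SAL lungs, and passed as lower in the averaged comparison (-0.24 ± 0.07, adjusted p = 0.0125). Ces1f ranged over 3.10 to 9.17 CPM (median 6.92) in HDM_CP lungs, 5.39 to 12.6 (median 7.80) in HDM_SAL lungs, 7.09 to 28.6 (median 9.36) in PBS_CP lungs and 6.27 to 12.9 (median 8.00) in PBS_SAL lungs. The PBS_CP libraries were spread most, and the highest of them, PBS_CP 76, stood above all others. The log2 fold change of Ces1f was -0.98 ± 0.29 in CP-treated lungs (adjusted p = 0.0363) and 0.03 ± 0.30 in saline-treated lungs (adjusted p = 0.97). Its call was lost without any 1 of HDM_CP 67, 97 and 98 and PBS_CP 75 and 76 (adjusted p 0.0716 to 0.127, log2 fold change -0.92 to -0.65), without both HDM_CP 45 and 98 (-0.95, adjusted p = 0.0765) and with the run of library numbers as a block (-0.83, adjusted p = 0.0516).

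**Figure D2:**
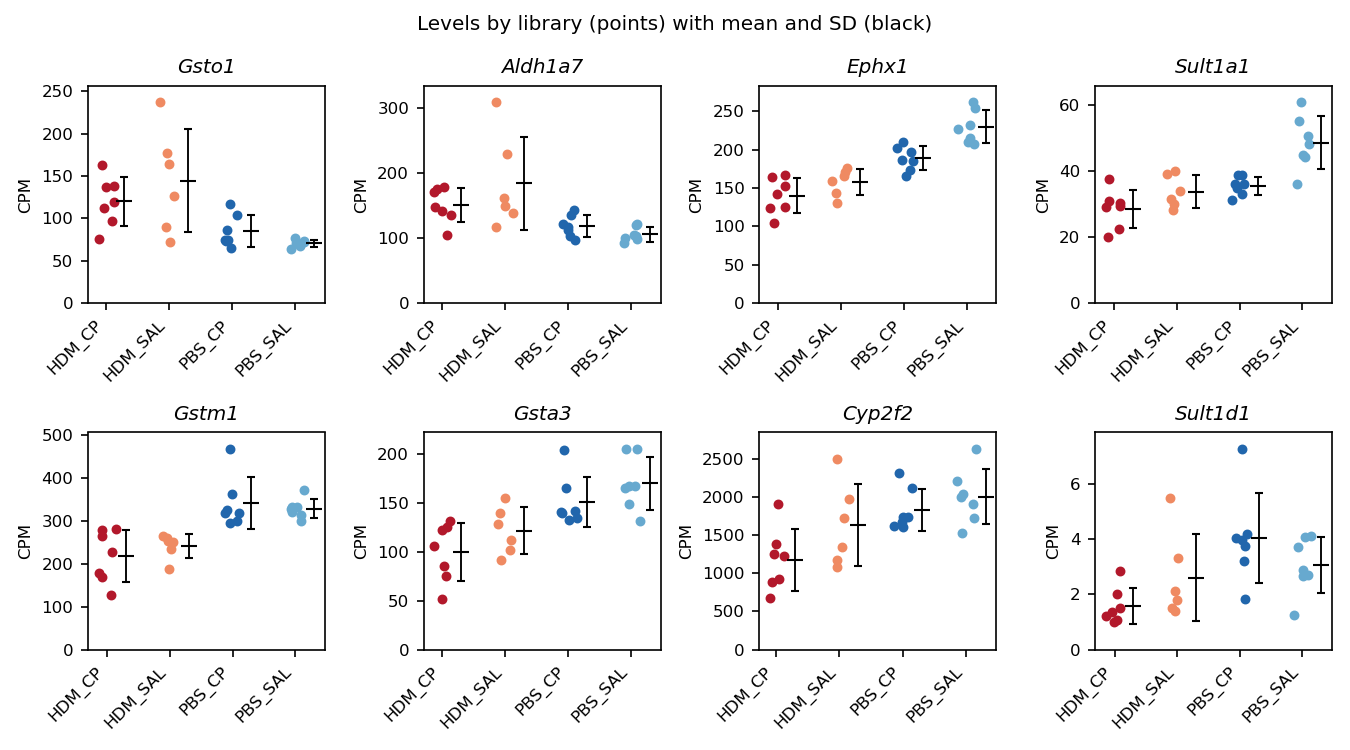
Counts in CPM (linear axes from 0) of 8 enzymes in every library, by group from HDM_CP to PBS_SAL, with the mean as a bar and the SD as a line. All HDM_SAL libraries of Ephx1 lay below all PBS_SAL libraries, and the HDM_SAL libraries of Gsto1 were spread from 72.3 to 237 CPM.

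Of the 8 glutathione transferases, Gsto1 rose after HDM and Gstm1, Gstm2, Gsta3 and Gstt1 fell in 1 or more comparisons. Gsto1, which reduces disulfides and dehydroascorbate with glutathione, ranged over 75.7 to 163 CPM (median 119) in HDM_CP lungs, 72.3 to 237 (median 145) in HDM_SAL lungs, 65.5 to 117 (median 74.8) in PBS_CP lungs and 63.7 to 77.3 (median 71.1) in PBS_SAL lungs. It had the largest positive value among the members in saline-treated lungs, 1.04 ± 0.20 on the log2 scale (adjusted p = 0.00362), and 5 of 6 HDM_SAL libraries lay above every PBS_SAL library. In CP-treated lungs its log2 fold change was 0.50 ± 0.20 (adjusted p = 0.129). Without HDM_SAL 50, 54 and 99 the value in saline-treated lungs was 0.45 (adjusted p = 0.501), and that of Aldh1a7 was 0.36 (adjusted p = 0.388). Those libraries held the highest shares of mitochondrial counts, and the part of that share in these values was not tested.

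The Mu-class gene Gstm1 ranged over 128 to 281 CPM (median 228) in HDM_CP lungs, 188 to 265 (median 252) in HDM_SAL lungs, 294 to 469 (median 318) in PBS_CP lungs and 299 to 373 (median 328) in PBS_SAL lungs. Both HDM groups lay entirely below the PBS group with the same second instillation. The separation of HDM_CP from PBS_CP was one that 0.309% of all genes showed in this direction. The log2 fold change was -0.64 ± 0.13 in CP-treated lungs (adjusted p = 0.00317), and in saline-treated lungs it was -0.44 ± 0.14 with an adjusted p of 0.061, which did not pass. The related Gstm2 ranged over 71.7 to 117 CPM (median 102) in HDM_CP lungs, 89.7 to 116 (median 109) in HDM_SAL lungs, 113 to 146 (median 118) in PBS_CP lungs and 113 to 128 (median 117) in PBS_SAL lungs, and fell by 0.29 ± 0.08 on the log2 scale in CP-treated lungs (adjusted p = 0.0213). Without HDM_CP 49 or PBS_CP 76 the adjusted p of Gstm2 was 0.0581 to 0.059. Gstm1 and Gstm2 lie on the minus strand of chromosome 3 (GRCm39, 107919571 to 107925289 and 107889018 to 107893769). They share few windows with other genes, 7.73% for Gstm1, in part with a pseudogene of Gstm2, and 0.622% for Gstm2.

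Gsta3, which in mice conjugates the aflatoxin epoxide, ranged over 51.3 to 132 CPM (median 106) in HDM_CP lungs, 92.1 to 155 (median 120.4) in HDM_SAL lungs, 133 to 204 (median 141) in PBS_CP lungs and 131 to 206 (median 167) in PBS_SAL lungs. All HDM_CP libraries lay below all PBS_CP libraries, and the log2 fold change was -0.60 ± 0.16 (adjusted p = 0.0217). In saline-treated lungs it was -0.48 ± 0.17 (adjusted p = 0.0992), with overlap. Without HDM_CP 49, HDM_CP 67 or PBS_CP 76 the adjusted p in CP-treated lungs was 0.0533 to 0.0555. The theta-class Gstt1 ranged over 44.5 to 57.7 CPM (median 51.3) in HDM_CP lungs, 45.7 to 59.2 (median 53.4) in HDM_SAL lungs, 48.2 to 59.7 (median 57.0) in PBS_CP lungs and 54.2 to 65.2 (median 61.2) in PBS_SAL lungs, and passed as lower only in the averaged comparison, at -0.14 ± 0.04 (adjusted p = 0.0249). Without both HDM_CP 45 and 98 it was -0.12 with an adjusted p of 0.067. Gsta4, which conjugates hydroxynonenal, had log2 fold changes of 0.16 ± 0.16 and -0.20 ± 0.15 in saline-treated and CP-treated lungs. The membrane-bound Mgst1 had 0.12 ± 0.12 and -0.16 ± 0.11, and the pi-class Gstp1 had -0.03 ± 0.10 and -0.18 ± 0.10, and none of these passed. Gstp1 shares 52.8% of its transcript windows with Gstp2, so the level of either is uncertain.

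Both sulfotransferases fell in the averaged comparison. Sult1a1, which sulfates phenols, ranged over 19.9 to 37.5 CPM (median 29.4) in HDM_CP lungs, 28.0 to 39.9 (median 32.6) in HDM_SAL lungs, 31.2 to 38.7 (median 36.0) in PBS_CP lungs and 36.0 to 60.7 (median 48.0) in PBS_SAL lungs. It fell in HDM_SAL relative to PBS_SAL lungs, with a log2 fold change of -0.52 ± 0.12 (adjusted p = 0.00921), while the groups overlapped between 36.0 and 39.9 CPM. Its value in CP-treated lungs was -0.32 ± 0.11 (adjusted p = 0.091). Sult1d1, a mouse sulfotransferase for catecholamines, ranged over 0.983 to 2.86 CPM (median 1.38) in HDM_CP lungs, 1.38 to 5.51 (median 1.95) in HDM_SAL lungs, 1.83 to 7.29 (median 3.97) in PBS_CP lungs and 1.24 to 4.13 (median 2.90) in PBS_SAL lungs. It had the most negative value of all members in CP-treated lungs, -1.35 ± 0.32 (adjusted p = 0.00752), against -0.23 ± 0.32 (adjusted p = 0.756) in saline-treated lungs. Without HDM_SAL 50, 54 and 99 the value of Sult1a1 in saline-treated lungs was -0.56 (adjusted p = 0.187). No single library ended the call of Sult1a1 in saline-treated or of Sult1d1 in CP-treated lungs.

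The UDP-glucuronosyltransferases Ugt1a6a and Ugt1a7c, which add glucuronic acid to phenols, passed in no comparison. Ugt1a6a ranged over 28.8 to 49.9 CPM (median 34.1) in HDM_CP lungs, 19.9 to 47.7 (median 33.5) in HDM_SAL lungs, 33.2 to 68.8 (median 40.5) in PBS_CP lungs and 29.1 to 38.9 (median 34.5) in PBS_SAL lungs, and its HDM log2 fold changes were 0.00 ± 0.17 in saline-treated and -0.18 ± 0.16 in CP-treated lungs. Those of Ugt1a7c were 0.16 ± 0.15 and -0.16 ± 0.15. Both are transcribed from 1 locus on chromosome 1 (GRCm39, 88062531 to 88146719 and 88022784 to 88147724, plus strand) and share exons. Every transcript window of Ugt1a6a and 68.8% of those of Ugt1a7c also occur in another gene, so their counts depend on how shared reads were split.

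Of 39 other phase 1 genes tested, 2 rose and 3 fell in saline-treated lungs, which is 12.8%, against 5.44% of all genes. In CP-treated lungs 3 rose and 6 fell, which is 23.1%, against 7.87% of all genes. Those that fell in the first comparison were the esterase Ces2g (-0.35 ± 0.10), the aldehyde dehydrogenase Aldh2 (-0.31 ± 0.09) and the P450 Cyp2d22 (-0.42 ± 0.12), and Cyp4f16 rose (0.25 ± 0.07), with adjusted p of 0.0301 to 0.0377. The other that rose, Ces1c, was at 0 CPM in every PBS_SAL library and at 0 to 4.70 CPM in HDM_SAL lungs. Its log2 fold change in PBS_CP against PBS_SAL lungs was 7.07 ± 1.99 (adjusted p = 0.447, edgeR). Hepatocyte genes summed to 92.2 CPM in 1 HDM_SAL library and to at most 1.45 CPM in PBS_CP lungs, and their part in the Ces1c values was not tested. In HDM_CP against PBS_CP lungs the lowest p belonged to the dehydrogenase Dhrs9 (1.39 ± 0.27, adjusted p = 0.00138) and the P450 Cyp2d22 (-0.55 ± 0.12, adjusted p = 0.00324). Of 38 other phase 2 and transport genes, 1 rose and 2 fell in saline-treated lungs (7.89%), and 2 passed in CP-treated lungs (5.26%). These shares are near those of all genes. In saline-treated lungs they were the transferase Gstt3 (0.29 ± 0.08), the sulfate donor synthase Papss2 (-0.54 ± 0.10) and the efflux pump Abcg2 (-0.33 ± 0.08), with adjusted p of 0.0347, 0.0024 and 0.0161. In CP-treated lungs the efflux pump Abcc3 fell (-0.40 ± 0.09, adjusted p = 0.00722). Of 16 Nrf2 targets, 3 rose and none fell in saline-treated lungs, namely the malic enzyme Me1 (0.83 ± 0.11), the glutathione synthesis subunit Gclc (0.54 ± 0.13) and glutathione reductase Gsr (0.34 ± 0.10). In CP-treated lungs 4 of the 16 rose, among them Me1 (0.66 ± 0.10) and heme oxygenase Hmox1 (0.37 ± 0.09), and the quinone reductase Nqo1 fell (-1.09 ± 0.28). Among 14 regulators of these pathways, none passed in saline-treated lungs, where 7 had an unadjusted p under 0.05 (20.0% of all genes did). In CP-treated lungs Cebpa (0.30 ± 0.07) and Cebpb (0.50 ± 0.15) rose and Rxra (-0.11 ± 0.03) fell.

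Markers of other cells moved in the same comparisons. After HDM all 10 goblet markers had positive values in both comparisons, with a median log2 fold change of 3.97 in saline-treated and 2.78 in CP-treated lungs. Of the 15 club and secretory markers, 6 rose and none fell in saline-treated lungs (median 0.55), and 4 rose and 1 fell in CP-treated lungs (median 0.18). All 8 alveolar type 1 markers had negative values in saline-treated lungs and 7 of 8 in CP-treated lungs, with medians of -0.10 and -0.20. Of the 10 endothelial markers, 9 had negative values in both, with medians of -0.19 and -0.20. Ciliated markers had positive values for 13 of 14 in saline-treated and 7 of 14 in CP-treated lungs (medians 0.48 and 0.04). Fibroblast markers fell for 3 of 12 in both comparisons, and 2 rose in CP-treated lungs. Alveolar macrophage markers rose for 3 of 9 in both, and 1 fell in CP-treated lungs. The part of any of these cells in the falls of the enzymes was not tested.

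CP changed none of the 31 enzymes at an adjusted p under 0.05, in lungs given HDM or PBS before it. In PBS_CP against PBS_SAL lungs 15 members had positive and 16 negative values, with a median log2 fold change of -0.05 (0.00 over all genes). DESeq2 and limma voom called 0 as well, 4 members had an unadjusted p under 0.05, against 5.45% of all genes, and 0.00812% of all genes were called. The 4 were Sult1a1 (-0.45 ± 0.11, adjusted p = 0.313), Ephx1 (-0.28 ± 0.09, adjusted p = 0.526), Fmo2 (-0.38 ± 0.15, adjusted p = 0.815) and, with a positive value, Ugt1a6a (0.35 ± 0.16, adjusted p = 0.897). The AhR target Cyp1a1, which combustion-derived hydrocarbons are known to induce, rose in the same comparison (3.87 ± 0.62, adjusted p = 0.0279). It ranged over 59.8 to 570.5 CPM (median 269) in HDM_CP lungs, 16.2 to 60.2 (median 25.4) in HDM_SAL lungs, 41.4 to 1028 (median 253) in PBS_CP lungs and 16.7 to 33.7 (median 26.6) in PBS_SAL lungs. Of 12 AhR targets, 11 had positive values in PBS_CP lungs, with a median of 0.50, and 1 passed. Only 9 of the 12 are genes outside the 31 enzymes, so this list overlaps the members.

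In HDM_CP against HDM_SAL lungs, 29 of 31 members had negative values and none passed with edgeR, DESeq2 or limma voom, with 6 at an unadjusted p under 0.05, against 9.7% of all genes, and 0.00406% of all genes called. The median log2 fold change was -0.24 over the members and 0.00 over all genes. The 6 were Aldh1a1 (-0.40 ± 0.14), Cyp2e1 (-0.51 ± 0.19), Cbr2 (-0.42 ± 0.16), Fmo1 (-0.26 ± 0.10), Cyp2f2 (-0.47 ± 0.20) and Sult1d1 (-0.72 ± 0.33), with adjusted p of 0.312 to 0.461. This comparison shares its HDM_CP libraries with one HDM comparison and its HDM_SAL libraries with the other. The unadjusted 95% interval for Cyp2f2 was -0.87 to -0.07. Markers of airway cells went the same way: 14 of 15 club and secretory markers had negative values (median -0.35), as did 14 of 14 ciliated markers (median -0.34), and their summed levels overlapped between the groups. Scgb1a1 had a log2 fold change of -0.38 ± 0.18 (adjusted p = 0.507, edgeR). With Scgb1a1 as a covariate in the fit, the members' median was -0.01. Scgb1a1 was measured after both treatments, so that value describes the members at equal Scgb1a1 and is not a treatment effect on its own. The part of airway cells in the negative values was not tested. Without HDM_SAL 50, 54 and 99, and without the covariate, the members' median was -0.09, and the part of those libraries in the negative values was not tested further. All 8 neutrophil markers had positive values (median 1.03).

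Averaged over HDM and PBS, CP changed no member either, while 0.0487% of all genes were called. There, 13 members had an unadjusted p under 0.05, against 8.84% of all genes. Of the 13, 12 had negative values, and limma voom called 0 members and DESeq2 called 2. Sult1a1 (-0.35 ± 0.08, adjusted p = 0.11) and Ephx1 (-0.23 ± 0.06, adjusted p = 0.166) had the smallest p. The interaction, which asks whether CP acted differently after HDM than after PBS, passed for no member with edgeR, DESeq2 or limma voom, and edgeR called 0% of all genes. An unadjusted p under 0.05 was seen for 2 members, a share near the 6.38% of all genes, namely Sult1d1 (-1.12 ± 0.45, adjusted p = 0.769) and Ces1f (-1.01 ± 0.42, adjusted p = 0.776). The falls of 10 enzymes that were called in CP-treated but not in saline-treated lungs are therefore not shown to differ between those settings. The median of the interaction was -0.18 over the members, and 0.00 with Scgb1a1 as a covariate. Scgb1a1 was measured after both treatments, so the second value is not a treatment effect on its own.

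**Figure D3:**
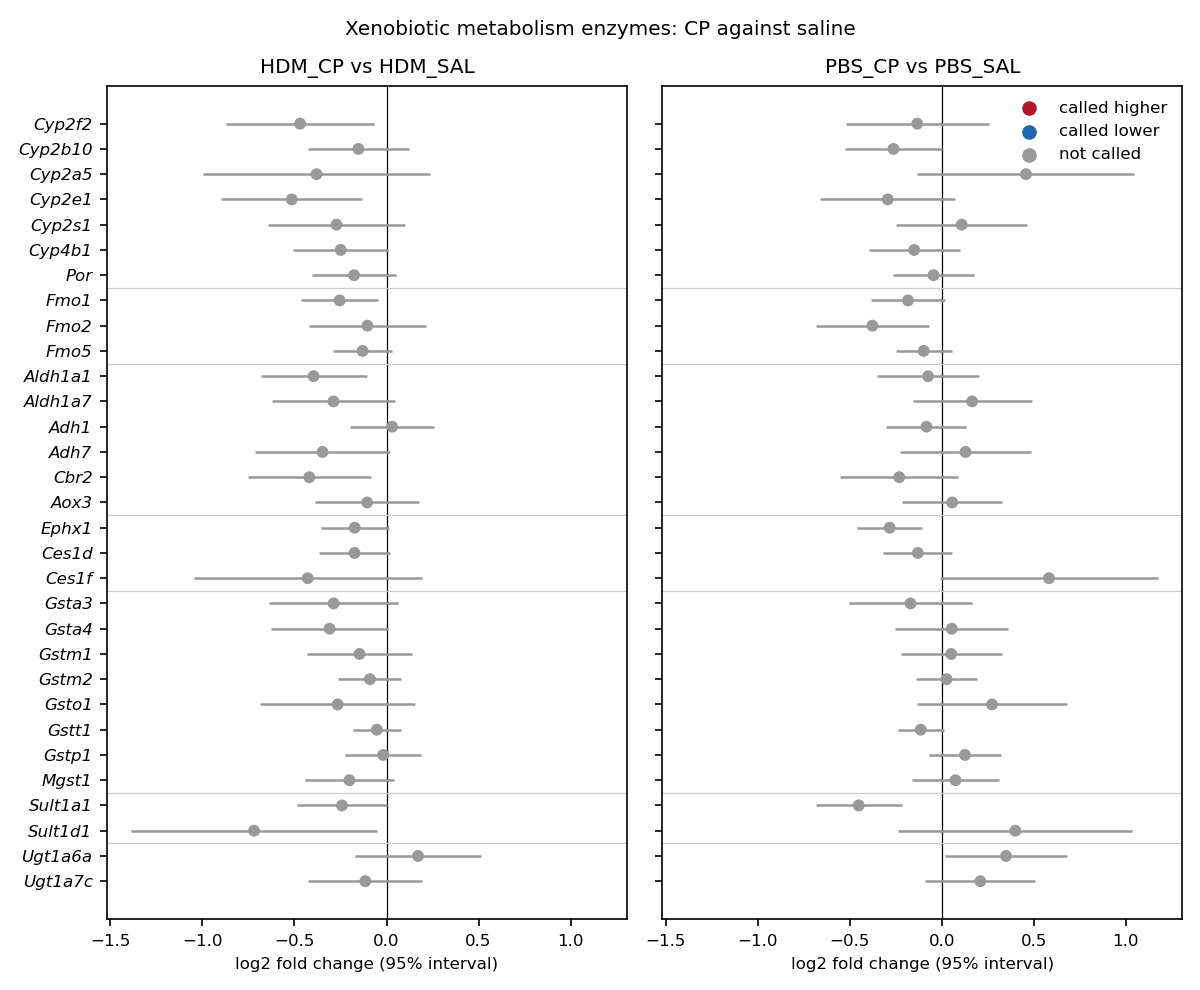
Log2 fold change of each of the 31 enzymes (points) with its 95% interval (lines) for HDM_CP against HDM_SAL and for PBS_CP against PBS_SAL, from edgeR, ordered by role. All points are grey, since none passed, and 29 of 31 lie below 0 after HDM, against 16 of 31 after PBS.

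Scgb1a1, the main secretory protein of club cells, ranged over 9082 to 27196 CPM (median 15239.6) in HDM_CP lungs, 16099.9 to 33001 (median 17598) in HDM_SAL lungs, 15942 to 21292 (median 19299) in PBS_CP lungs and 15886 to 22834 (median 18487) in PBS_SAL lungs. It passed in none of the 7 comparisons, and its log2 fold changes after HDM were 0.23 ± 0.18 in saline-treated and -0.16 ± 0.18 in CP-treated lungs. Its spread was wider in both HDM groups, with coefficients of variation of 35.8% in HDM_CP and 32.6% in HDM_SAL lungs, against 10.6% in PBS_CP and 13.3% in PBS_SAL lungs. To describe covariation without the differences between groups, each gene's log2 CPM was taken as the deviation from its group mean. Pearson's r with Scgb1a1 was then computed over the 27 libraries for 24628 genes, with 100000 permutations within groups and adjustment over all of them. Every r below is over libraries that share preparation, depth and scaling for both genes.

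All 31 enzymes had a positive r with Scgb1a1, and 16 passed, against 4.22% of all genes with positive and 3.39% with negative r. The median r was 0.67 over the members and 0.00 over all genes, and it was 0.70 over phase 1 and 0.62 over phase 2 members. The 16 were 11 of 19 phase 1 and 5 of 12 phase 2 enzymes. Cbr2 had the highest r, 0.943 (Spearman's rho 0.900, adjusted p = 0.00254), and 1 other gene of all tested stood above it. Gsta4 followed with r = 0.909 (rho 0.925) and Por with r = 0.902 (rho 0.894), both with that same adjusted p, and the permutation p of 1e-05 for r and for rho in all 3 was the smallest that the permutations can give. Cyp2f2 had r = 0.893 and Mgst1 had r = 0.901. At the other end were Ugt1a7c with r = 0.10 (rho 0.162, permutation p = 0.678 and 0.473), Fmo1 with r = 0.149 (rho -0.057, permutation p = 0.6 and 0.809) and Fmo5 with r = 0.259 (rho 0.230, permutation p = 0.347 and 0.296). Enzymes with high levels in TPM stood at both ends of this order, with Cbr2 and Cyp2f2 near its top and Fmo1 and Fmo2 (r = 0.355) near its foot.

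**Figure D4:**
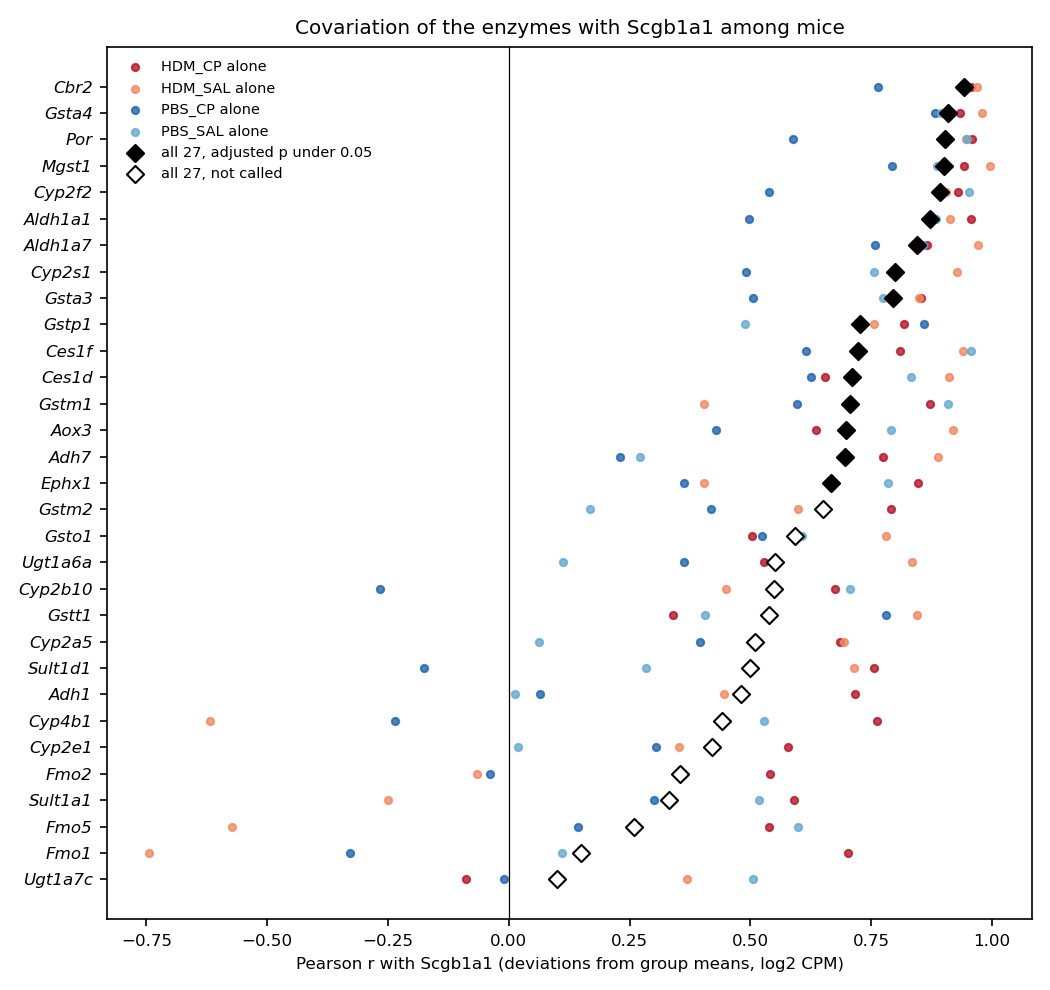
Pearson's r of each enzyme with Scgb1a1, over deviations of log2 CPM from group means (27 libraries) and within each of the 4 groups. All 31 values over the 27 libraries are positive, from 0.10 for Ugt1a7c to 0.943 for Cbr2, and Fmo1 was at -0.744 within HDM_SAL.

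HDM_CP 45 and HDM_CP 98 lay farthest from the median, at 0.80 and -0.79 log2 units from their group mean. Without both, r was 0.906 for Cbr2, 0.930 for Gsta4, 0.891 for Por and 0.828 for Cyp2f2. For Ephx1 it was 0.489, against 0.667 with them, and for Gstm1 0.515, against 0.706. For Adh1 it was 0.121, against 0.480, for Cyp4b1 0.103, against 0.442, and for Fmo1 -0.294, against 0.149. With Fmo2 at 0.109, Sult1a1 at 0.093 and Fmo5 at 0.031, the positive values of these 6 rest largely on those 2 libraries. Within groups, 30 of 31 r were positive in HDM_CP (median 0.76), 26 in HDM_SAL (median 0.78), 25 in PBS_CP (median 0.43) and 31 in PBS_SAL (median 0.61), and 23 members were positive in all 4. Cbr2 had r of 0.956 in HDM_CP, 0.969 in HDM_SAL, 0.765 in PBS_CP and 0.948 in PBS_SAL, with exact permutation p of 0.00377, 0.00417, 0.0577 and 0.000198. Fmo1 had r of 0.703 in HDM_CP, -0.744 in HDM_SAL, -0.328 in PBS_CP and 0.111 in PBS_SAL, with exact permutation p of 0.0776, 0.0903, 0.475 and 0.802.

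The numbers of the libraries fall into 3 runs, and nothing in the labels says what the runs are. Within runs, 30 of 31 r were positive over the 10 libraries of the lowest numbers (median 0.74), 24 over the 8 of the middle run (median 0.51) and 31 over the 9 of the highest numbers (median 0.86). Gsto1 was at 0.692, -0.700 and 0.668 in these runs. With group-by-run means removed the members' median r was 0.69 and 6 passed. Within the HDM groups alone 11 of the 31 passed (median 0.72). The shares of all genes that passed in these settings are not given here, so the 6 and the 11 are not set against a background. Within the PBS groups alone 0 members and 0 of all genes passed. There, 16 members had an unadjusted permutation p under 0.05, against 7.35% of all genes, and the members' median was 0.58. All of these settings used 20000 permutations, against 100000 in the main test, so the smallest p they can give is larger. Their counts are therefore not like measures to the 16 of the main test.

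**Figure D5:**
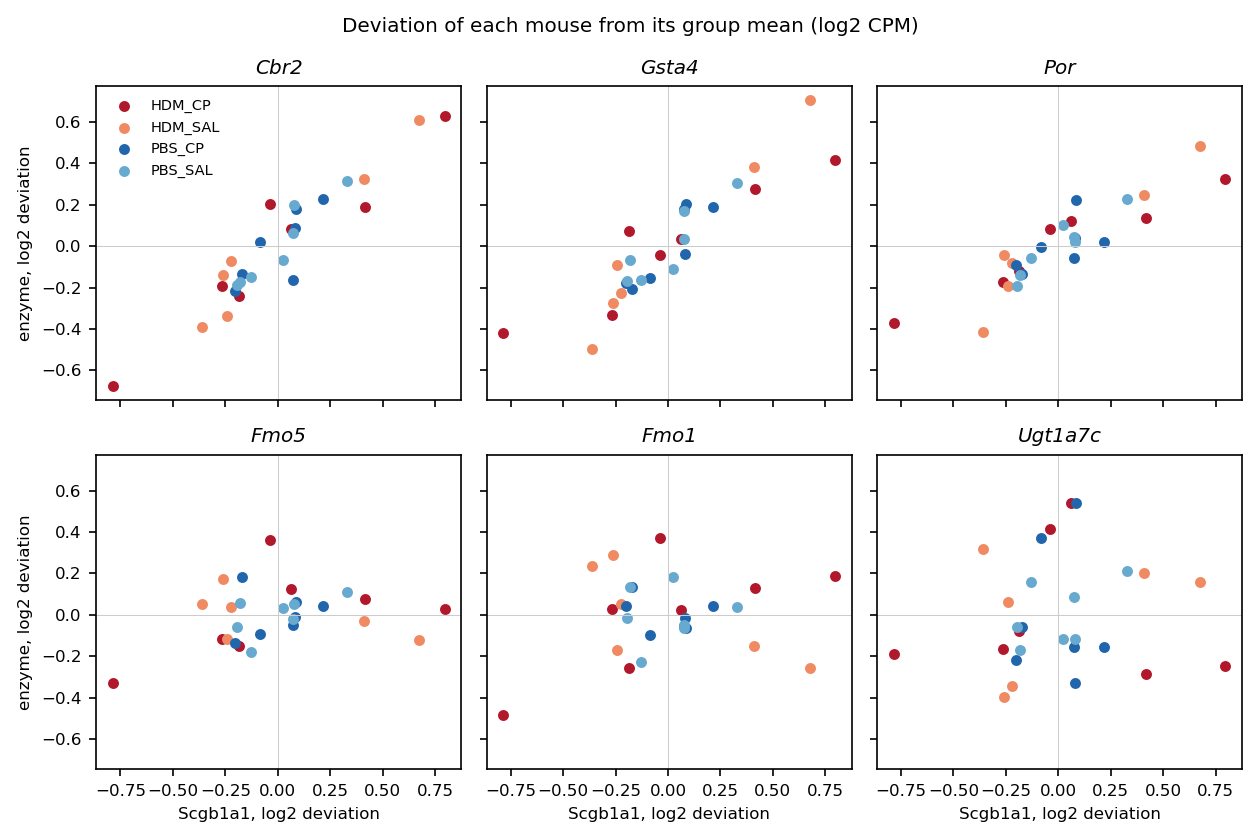
Deviations of log2 CPM from group means of 6 enzymes (the 3 with the highest and the 3 with the lowest r) against those of Scgb1a1, 1 point per library, coloured by group. Cbr2 lies along a line with r = 0.943 and Fmo1 scatters with r = 0.149.

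Among themselves the enzymes had a positive r in 440 of 465 pairs, with a median r of 0.49 over all 465. The 440 include values as small as 0.011 (Adh7 with Sult1a1). The share of positive pairs over all genes was not computed, so these counts are not set against a background. The tightest pair was Cyp2f2 with Cbr2 (r = 0.952), followed by Gsta4 with Mgst1 (r = 0.951). Fmo1 tracked Cyp4b1 (r = 0.877) and Fmo5 (r = 0.838), and ran against Gsto1 (r = -0.395). Gsto1 tracked Adh7 (r = 0.892), the pair that also rose together after HDM in saline-treated lungs. Against mean marker scores of 15 cell lists, 13 members had their highest r with ciliated markers, 11 with alveolar type 1 markers and 2 with club and secretory markers. The adjusted permutation p over 480 pairs of gene and list was under 0.05 for 9 of these 31 highest values. For the other 22, Ephx1, Adh1 and Cyp2f2 among them, it was not, and whether a member's highest r differed from its r with other lists was not tested. Cyp2s1 with ciliated markers reached r = 0.877, Cyp4b1 with alveolar type 1 markers 0.780 (Spearman's rho 0.502), Gsto1 with club and secretory markers 0.848 and Fmo1 with endothelial markers 0.677. Scgb1a1 itself had r of 0.72 with the ciliated score and of 0.43 with the club and secretory score. It is 1 of the 15 genes in the club and secretory score, so that r is in part with itself and the 2 values are not like measures.

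With Scgb1a1 as a covariate in the edgeR fit, HDM effects on more enzymes passed. In saline-treated lungs 3 rose and 13 fell, against 3 and 5 without it. The share of all genes that passed in this fit is not given here. The gain in calls is therefore not shown to be particular to the members. Cbr2 was then at -0.43 ± 0.06 (adjusted p = 0.000173), Cyp2f2 at -0.51 ± 0.09 (adjusted p = 0.00121) and Gsta3 at -0.63 ± 0.11 (adjusted p = 0.000959) on the log2 scale. In CP-treated lungs 2 rose (Aldh1a7 and Gsto1) and 13 fell, and Cbr2 was at -0.28 ± 0.06 (adjusted p = 0.00476). Scgb1a1 was measured after both treatments, so these values describe the enzymes at equal Scgb1a1 and are not treatment effects on their own.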

How the data were processed

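Whole-lung polyA RNA was sequenced as paired 150-base reads, per the labels' protocols. The submitters' processing notes name STAR, StringTie 2 and the build GRCm39, and the annotation named with the tables is GENCODE M33. The authors deposited estimated counts and TPM per gene and library. Each numbered library was taken as 1 mouse, and p-values measure the spread between these libraries. Estimated counts were rounded and tested in edgeR 4.0.16 under R 4.3.3 (filterByExpr with a minimum count of 10, TMM, robust quasi-likelihood test, 1 fit of 4 group means over 27 libraries, Benjamini-Hochberg adjustment over 24629 genes, p-values under 0.05 called). CPM are TMM-scaled. Genes without a symbol held 0.06% of counts. Alternatives were DESeq2 1.42.0, limma 3.58.1 (voom, or trend on log2(TPM + 1)), other filters and scalings, and libraries left out. Scripts were tested on simulated data. Permutation p-values with Scgb1a1 were adjusted over all genes, where the plan had named the members alone. Members and gene lists were chosen with earlier results of these data known. Full values are given for members called in any comparison and the most abundant of each role; other lists name at most 4 genes of lowest p, or all called where there are 5 or fewer. Shared sequence was counted in windows of 100 bases over GENCODE M21 transcripts. No source used here names a strand setting; counts of genes that overlap on opposite strands are therefore uncertain. The result of a single gene among the other pathway lists is not reported here.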

Additional observations from a re-analysis of the deposited data

Results flagged for a closer look

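Dixon's ratio, the gap from the lowest or highest library to its neighbour divided by the range, was taken on log2 CPM. Among 124 sets of 6 or 7 libraries (31 enzymes in 4 groups), 5 held a library whose ratio exceeded the 95% critical value. That is 4.03%, and chance flags about 1 in 20 sets. Cyp2e1 was 9.44 CPM in HDM_SAL 50 and 4.70 to 5.54 CPM in the other HDM_SAL libraries. Gstm1 was 188 CPM in HDM_SAL 99 and 235 to 265 CPM in the others of its group. PBS_CP 76 held 2 of the 5: Gstm2 at 146 CPM, with 113.4 to 122.8 CPM in the other PBS_CP libraries, and Ugt1a6a at 68.8 CPM, with 33.2 to 42.0 CPM in the others. Sult1d1 was 1.24 CPM in PBS_SAL 64 and 2.67 to 4.13 CPM in the other PBS_SAL libraries. No member differed between HDM-treated and PBS-treated lungs in its response to CP by the test of the interaction.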

How the results depend on the processing

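None of the 40 member calls after HDM changed sign in any setting run. Among these 40, 27 were ended by no single left-out library, and 18 held in every setting run. Values that were not called could change sign. The r of Fmo1 with Scgb1a1 was 0.149, and -0.294 without HDM_CP 45 and 98. Calls lost numbered 12 without HDM_SAL 50, 54 and 99 (adjusted p 0.0522 to 0.898), 7 with no filter (0.0618 to 0.0806), 6 without HDM_CP 45 and 98 (0.0524 to 0.155), 5 with only the groups compared in the fit (0.0565 to 0.0932), 4 with the run of library numbers as a block (0.0505 to 0.0711; Fmo5 and Adh7 in saline-treated lungs, Ces1f in CP-treated lungs and Cbr2 in the average) and 3 without the 3 libraries of lowest total (0.0568 to 0.104). For HDM_SAL against PBS_SAL (8 members called), leaving out single libraries gave 5 to 13, Scgb1a1 as a covariate gave 16, leaving out HDM_CP 45 and 98 gave 13 and leaving out HDM_SAL 50, 54 and 99 gave 0. The last 2 settings were chosen after seeing the data. Single libraries left out gave 6 to 14 for HDM_CP against PBS_CP (12 called), 19 to 21 for the HDM average (20), 0 to 1 for the CP average (0; 1 without HDM_CP 66 or PBS_SAL 105), and 13 to 18 for covariation with Scgb1a1 (16). DESeq2 called 2 members in the CP average. Covariation gave 6 with group-by-run means removed and 0 in the PBS groups alone. In these cases the cause was not tested. The covariation settings, single libraries left out included, used 20000 permutations, against 100000 for the 16. Over all genes, HDM_SAL against PBS_SAL gave 786 higher and 553 lower, but 521 and 849 on log2(TPM + 1), 2021 calls in DESeq2 and 34 without HDM_SAL 50, 54 and 99, and the HDM average gave 2266 and 1720, but 1555 and 2375 on log2(TPM + 1). DESeq2 called 32 genes in PBS_CP against PBS_SAL (edgeR 2), 200 in HDM_CP against HDM_SAL (edgeR 1), 176 in the CP average (edgeR 12) and 6 in the interaction (edgeR 0). No paired analysis was possible because every library number belongs to 1 group. Counting precision limits Sult1d1 most, at 0.983 to 7.29 CPM.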
